A study of Homo sapiens with 2 samples.

Results

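The genes described here are 35 targets and partners of NRF2 (encoded by NFE2L2), the transcription factor of the antioxidant and detoxification response. They were taken from a list of symbols that was chosen with earlier results of these data known. All 35 were found among the 59679 RefSeq genes on chromosomes 1 to 22, X and Y. The values come from RIP-seq, the sequencing of RNA that comes down with an antibody to a protein, in the established human lung adenocarcinoma line A549, and no treatment of the cells is named. HNRNPC, a nuclear protein that packages nascent transcripts and prefers U-rich RNA, was pulled down with 5 µg of antibody. The series has 2 samples, 1 HNRNPC IP library and 1 input library without antibody, both from the same line. Only the peaks deposited for the IP were read, and values of the input were not used here. As each group is a single library with no replicate, nothing was tested between samples and no p-value is given.

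NRF2 binds antioxidant response elements together with small MAF proteins and is held at a low level in most cells by KEAP1, an adaptor that delivers it to the CUL3 ubiquitin ligase. A549 carries a KEAP1 mutation, and NRF2 is constitutively active in this line. Its targets make glutathione and thioredoxin, supply NADPH, handle heme and iron, reduce aldehydes and quinones, and export conjugates from the cell.

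A gene was counted as having a peak when a summit, the highest point of a peak, lay within its RefSeq span on GRCh38, and a summit was counted for every gene whose span held it. Of the 35 genes, 12 had at least 1 peak (34.3%, 95% exact binomial interval 19.1 to 52.2%), against 18.4% of all 20037 protein-coding genes and 7.21% of all 59679 genes. They were NFE2L2, SLC7A11, GCLC, GCLM, GSR, TXNRD1, TKT, ME1, ALDH1A1, UGDH, ABCC1 and ABCC2. The interval covers counting error only and treats genes as independent, and it does not cover the choice of the list. A gene must be transcribed to give a peak, and the list holds no expression values, so the part of expression in these counts was not tested. The 12 genes held 128 peaks, and no summit lay in a further protein-coding gene. With q of 0.001 or less 11 had a peak, against 16.7% of protein-coding genes, and with a fold of 4 or more 12 had one, against 17.7%. Several genes held many peaks: 8 of the 35 had 5 or more, against 8.38% of protein-coding genes, and 5 had 10 or more, against 3.9%. Those 5, TXNRD1, SLC7A11, ABCC1, ABCC2 and GSR, held 97 of the 128 peaks. The median density of the 12 genes was 16.4 peaks per 100 kb of span, against 6.84 for the 3685 protein-coding genes with a peak.

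Folds in the NRF2 genes lay on both sides of the general level. Fold enrichment is the authors' value for each peak, a ratio of IP over control at the summit. The best fold per gene had a median of 6.73 in the 12 genes (95% order-statistic interval over genes 4.61 to 10.4), against 7.04 in all protein-coding genes with a peak, and 6 of the 12 were above that value. Over single peaks the median fold was 4.62 in these genes and 5.76 in all 23111 peaks on the same chromosomes. The lowest fold was 2.26, in TXNRD1, and the highest 14.5, in ABCC2.

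**Figure D1:**
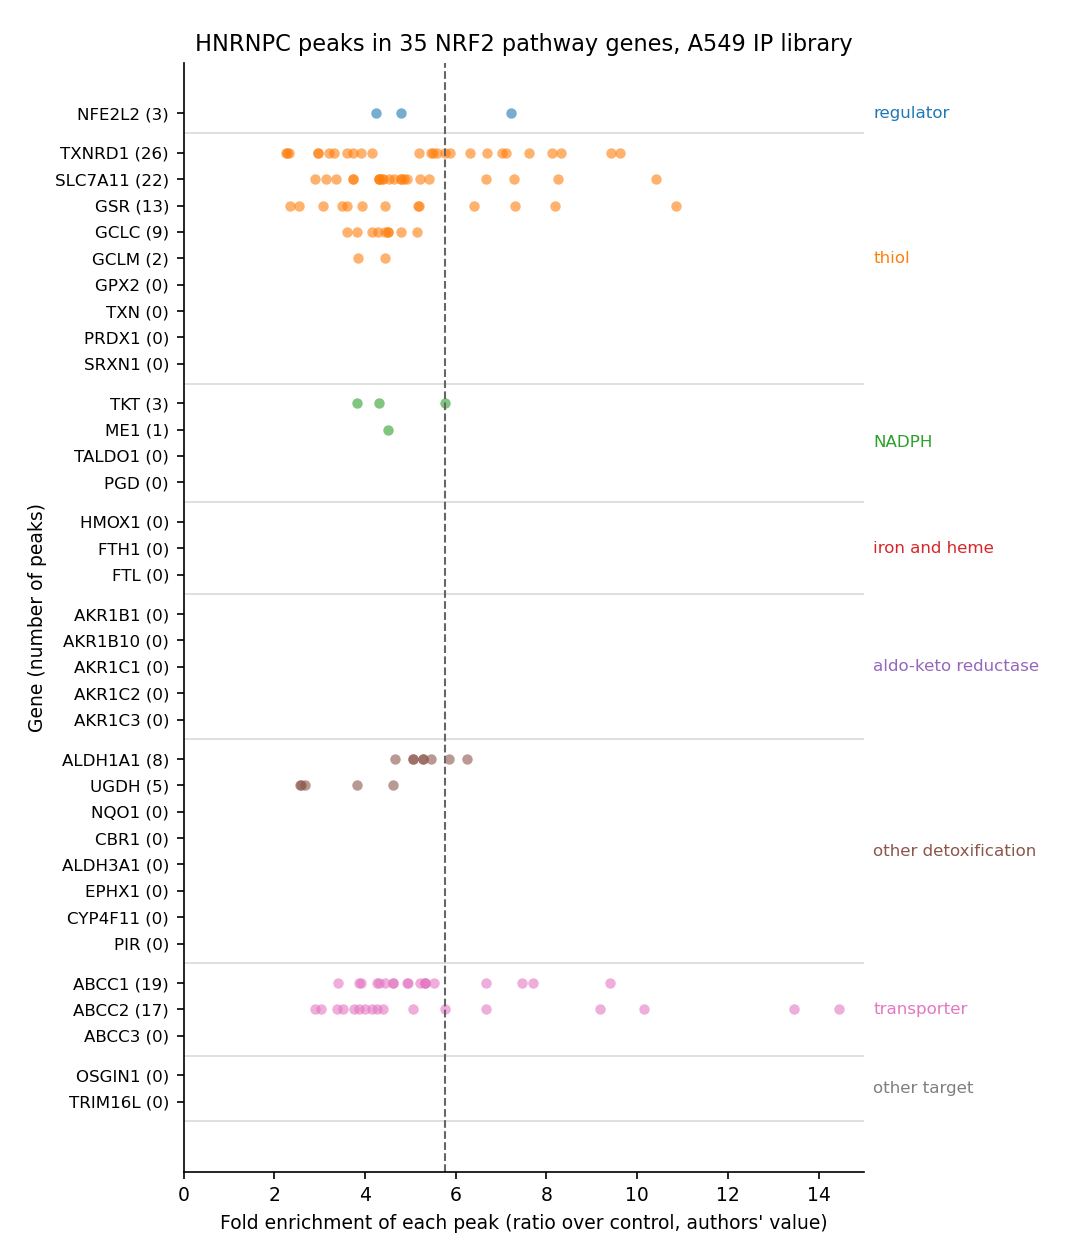
Fold enrichment (horizontal axis, authors' ratio over control) of every HNRNPC peak in the 35 genes, grouped by role, with 1 point per peak and the number of peaks after each symbol. The dashed line is the median of all peaks, 5.76. Of the 128 peaks, 97 lie in TXNRD1, SLC7A11, GSR, ABCC1 and ABCC2, and the rows of the aldo-keto reductases and of the iron and heme genes are empty.

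The peaks also gave the coverage behind each fold. By default MACS2 computes the fold as IP coverage plus 1 over control level plus 1 and the p from a Poisson distribution. IP coverage and control level can thus be solved from the deposited fold and p. The control level is the one the caller applied and need not be the control coverage at the summit itself. All 23148 rows gave exactly 1 solution in whole IP reads, to within 5e-05 in fold, once IP coverage was multiplied by 0.535, that is with 1.87 IP reads per control read. Control levels of 1 or more came out as whole reads, to within 0.001, in 83.2% of 7078 peaks, and the commonest level, 0.103, is the floor the caller used where no higher local level applied. Whether the control is the input library is not stated in the sources used here. Intervals given with read numbers below are 95% exact Poisson intervals and cover counting error only.

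Pooled over genes, summits in the NRF2 genes had more IP reads and a higher control level than summits in general, by their medians. The median was 25 IP reads (quartiles 14 and 37) in the 128 peaks and 15 (quartiles 10 and 21) in all peaks. By gene the median was 7 in TKT, 8 in NFE2L2, 11 in ALDH1A1 and 15 in ME1. In the other genes with a peak it ran from 21.5 in TXNRD1 to 70 in UGDH. The control level was 1 or more at 81 of the 128 summits (63.3%), against 30.6% of all summits. At summits with such a level the median was 36 IP reads in the NRF2 genes and 23 in all peaks. At the other summits it was 11 and 12. Over all peaks the fewest IP reads were 6 at a control level of 0.103 and 14 at a level of 1. By gene, 9 of the 35 had a summit with a control level of 1 or more, against 9.83% of protein-coding genes. The level was 5 or more at 26 of the 128 (20.3%), against 2.39% of all summits. These 26 all lay in TXNRD1, GSR, UGDH, SLC7A11 and ABCC2. Folds were lower where the control level was 1 or more. That is partly built into the measure, since the fold divides by the control level plus 1. In the NRF2 genes the median fold was 4.26 at summits with a control level of 1 or more and 5.45 at the other 47. In all peaks the corresponding medians were 4.96 and 6.24. Of the 40 summits in the whole list with 70 or more IP reads, a bound chosen after the values were seen, 4 lay in TXNRD1 and 3 in UGDH. The NRF2 genes held 0.554% of all peaks. The 4 TXNRD1 summits had exactly 70 IP reads, so any higher bound leaves them out.

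**Figure D2:**
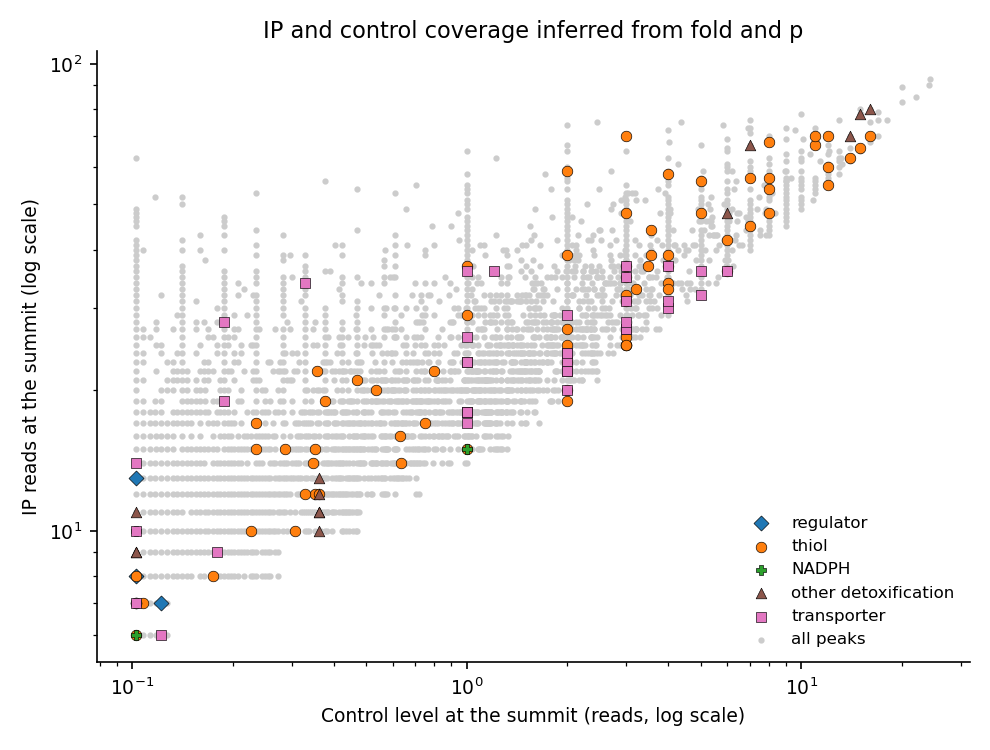
IP reads at the summit (vertical axis, log scale) against the control level at the summit (horizontal axis, reads, log scale), both inferred from the authors' fold and p, with coloured symbols for peaks in the NRF2 genes by role and grey points for all peaks. Thiol genes and UGDH reach the upper right corner, with up to 80 IP reads at a control level of 16, while the peaks of NFE2L2 and TKT lie at the lower left.

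NFE2L2 itself (NCBI gene 4780, chr2:177230303-177264727, minus strand) had 3 peaks. Their folds were 4.23, 4.79 and 7.22, from 7, 8 and 13 IP reads at control levels of 0.122, 0.103 and 0.103. The highest, at chr2:177257813-177258006, had 13 reads with an interval of 6.92 to 22.2, so the order of the 3 peaks is not resolved by their reads. All 3 summits lay 6.75 to 9.85 kb downstream of the start of the span. As many peaks were found in 9.99% of the 2003 protein-coding genes of its span class, 1 of 10 classes of equal size, whose median span is 29.2 kb.

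Thiol metabolism held 72 of the 128 peaks, the most of any role, in 5 of its 9 genes. Over all protein-coding genes 18.4% had a peak. Of the 72 peaks, 26 lay in TXNRD1, 22 in SLC7A11 and 13 in GSR. SLC7A11, GCLC, GCLM and GSR serve glutathione, and TXNRD1 serves thioredoxin. The genes without a peak were TXN, which encodes thioredoxin, the peroxiredoxin gene PRDX1, the sulfiredoxin gene SRXN1 and the glutathione peroxidase gene GPX2. Their spans were 12.7, 11.8, 6.59 and 3.59 kb. In their span classes 8.59, 8.59, 3.74 and 2% of protein-coding genes had a peak.

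TXNRD1 (NCBI gene 7296, chr12:104215779-104350307, plus strand), the cytosolic thioredoxin reductase, had 26 peaks, the most of the 35 genes and rank 51 among protein-coding genes with a peak. As many were found in 1.40% of 2004 genes of similar span. RefSeq lists 2 start sites for TXNRD1 that are 71.3 kb apart, and 0 of the 26 summits lay between them. EID3, a protein-coding gene inside the TXNRD1 span, held none of the summits. The first peak, chr12:104287040-104289239, began 8 bp after the second start site and was the widest in these genes, at 2200 bp. It had 54 IP reads at a control level of 8 and a fold of 3.32.

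Downstream of the second start site the TXNRD1 peaks formed 2 runs separated by 11.1 kb, a division made after the values were seen. The nearer run held 15 peaks over 11.3 kb, with 12 to 54 IP reads (median 17), a median control level of 0.376 and a median fold of 6.30. The farther run held 11 peaks over 20.3 kb, with 14 to 70 IP reads (median 66), a median control level of 8 and a median fold of 3.21. The runs differed in coverage, since 10 of 11 summits of the farther run had a control level of 1 or more, against 2 of 15 in the nearer run. The farther run also held the strongest peak, chr12:104311273-104311448, with a fold of 9.62 (−log10 q 22.4). That summit had 70 IP reads (54.6 to 88.4) at a control level of 3.

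The bases around the second TXNRD1 start site are shown because the peaks begin there. The window covers 250 bases before the start and 30 after it (chr12:104286782-104287061, plus strand, RefSeq GRCh38.p14), with the 22 bases under the first peak in capitals.
TXNRD1 second start: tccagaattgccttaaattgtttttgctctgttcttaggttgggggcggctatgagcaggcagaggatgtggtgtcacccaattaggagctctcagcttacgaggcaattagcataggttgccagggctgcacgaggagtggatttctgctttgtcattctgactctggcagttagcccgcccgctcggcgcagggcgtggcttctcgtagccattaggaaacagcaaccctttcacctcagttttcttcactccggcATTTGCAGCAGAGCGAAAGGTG

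SLC7A11 (NCBI gene 23657, chr4:138164097-138242349), the cystine transporter that feeds glutathione synthesis, had 22 peaks, and only 13 of 2003 genes of similar span (0.649%) had as many. Folds ran from 2.90 to 10.4. The strongest peak, chr4:138183234-138183284, was 51 bp wide and had 37 IP reads (26.1 to 51.0) at a control level of 1. Of the 6 peaks within 10 kb of the lower-coordinate end, 5 were 648 bp or wider and the other was 112 bp wide. The 6 covered 4927 bp of a 6.12 kb stretch, with a median width of 785 bp against 147 bp for the 128 peaks, and had 36 to 45 IP reads at control levels of 3.49 to 7. The widest, chr4:138170430-138172019, spanned 1590 bp at a fold of 3.36. A peak at the other end, chr4:138241591-138242388, had the most IP reads of the gene, 48 (35.4 to 63.6), and a fold of 6.68. The start sites of SLC7A11 were not given in the table used, so its peaks were placed by coordinate alone.

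GSR (NCBI gene 2936, chr8:30678066-30727846), glutathione reductase, which uses NADPH to regenerate glutathione, had 13 peaks (2.10% of 2004 genes of similar span had as many). Its strongest peak, chr8:30703065-30703269, had a fold of 10.9, with 59 IP reads (44.9 to 76.1) at a control level of 2. Summits of like depth elsewhere in the gene ranged widely in fold. At chr8:30696353-30696509 there were 67 IP reads (51.9 to 85.1) at a control level of 11 and a fold of 3.07, and at chr8:30689193-30689256 there were 60 at a level of 12 and a fold of 2.55. At chr8:30727505-30727834 there were 58 at a level of 4 and a fold of 6.41. Inferred IP reads at these 4 summits were 58 to 67 and inferred control levels 2 to 12. The lowest fold of the gene was 2.34.

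Both subunits of glutamate-cysteine ligase, which carries out the first step of glutathione synthesis, had peaks. GCLC (NCBI gene 2729, chr6:53497341-53545101, minus strand), the catalytic subunit, had 9 peaks at folds of 3.60 to 5.15, and the strongest, chr6:53516081-53516177, had 27 IP reads (17.8 to 39.3) at a control level of 2. Its 511 bp peak at chr6:53544491-53545001 had its summit 0.502 kb from the start of the gene. GCLM (NCBI gene 2730, chr1:93885199-93909430, minus strand), the modifier subunit, had 2 peaks, both near the end of the gene, with summits 21.3 and 22.5 kb from its start in a span of 24.2 kb. The stronger, chr1:93887667-93888326, was 660 bp wide with a fold of 4.45 and 33 IP reads (22.7 to 46.3), and the other had 3.84 and 34 reads. Per 100 kb the density was 18.8 peaks in GCLC and 8.25 in GCLM, but the peaks covered 3.03% of the GCLC span and 4.96% of the GCLM span. Median IP reads were 23 in GCLC and 33.5 in GCLM.

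The 4 genes of NADPH supply held 4 peaks. TKT (transketolase) and ME1 (cytosolic malic enzyme) had peaks at 9.58 and 0.453 per 100 kb, and PGD (phosphogluconate dehydrogenase) and TALDO1 (transaldolase) had none. In the span classes of these 4 genes, in that order, 19.8, 33.6, 13.4 and 13.4% of protein-coding genes had a peak. TKT (NCBI gene 7086, chr3:53224712-53256022, minus strand) had 3 peaks 7.18 to 8.73 kb from its start, with 6, 7 and 10 IP reads at a control level of 0.103. The strongest, chr3:53247954-53248064, had a fold of 5.76. ME1 (NCBI gene 4199, chr6:83210402-83431051, minus strand) had 1 peak in 220.7 kb, the lowest density of the 12 genes. That peak, chr6:83352055-83352156, had a fold of 4.52 and 15 IP reads (8.395 to 24.7), with a −log10 q of 2.76, and ME1 was the only one of the 12 to lose its peak at q of 0.001 or less.

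No peak lay in the iron and heme genes or in the aldo-keto reductases. HMOX1 (heme oxygenase), FTH1 and FTL (the ferritin chains) spanned 13.1, 3.35 and 1.57 kb. In their span classes 8.59, 2 and 2.05% of protein-coding genes had a peak. AKR1B1, AKR1B10, AKR1C1, AKR1C2 and AKR1C3, which reduce aldehydes, ketones and steroids, spanned 13.8 to 58.9 kb. A count of 0 is given here with the limit of 3 counts of the total, and 0 of 5 allows a share of up to 60% of such genes. The AKR1C genes are closely similar copies, and the ferritin genes have many pseudogenes. How reads that match several copies were treated is not given in the sources used here, and its part in the counts was not tested. AKR1C3 was the longest of the 5, and 32.5% of the genes of its span class had a peak. The share was 19.8% in the class of AKR1C2, 13.4% in that of AKR1B1 and AKR1C1, and 8.59% in that of AKR1B10.

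Among other detoxification enzymes, ALDH1A1 and UGDH had peaks, and NQO1, CBR1, EPHX1, ALDH3A1, CYP4F11 and PIR had none. That is 2 of 8 (25%), beside 18.4% of all protein-coding genes. ALDH1A1 (NCBI gene 216, chr9:72900671-72953053, minus strand), a retinaldehyde and aldehyde dehydrogenase, had 8 peaks that all lay 0.732 to 7.45 kb from its start, in a span of 52.4 kb. Their folds were close, 4.67 to 6.24, with 9 to 13 IP reads each and control levels of 0.103 to 0.362. The strongest, chr9:72946664-72947613, was 950 bp wide and had 11 reads (5.49 to 19.7). Reads did not separate any of the 8 from the others.

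UGDH (NCBI gene 7358, chr4:39498755-39527439, minus strand), which makes UDP-glucuronate for glucuronidation, was at the other extreme. Its 5 summits had 80, 78, 70, 67 and 48 IP reads, at control levels of 16, 15, 14, 7 and 6 and folds of 2.58, 2.67, 2.57, 4.61 and 3.81. The first of these, chr4:39510409-39510521, ranked 6 by IP reads among 23111 peaks but 23047 by fold. The strongest by fold, chr4:39521327-39521512, had 67 reads (51.9 to 85.1). The peak at chr4:39527247-39527549 crossed the RefSeq start of the gene, with its summit 0.060 kb inside.

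The UGDH start is shown because the peak extends 110 bases upstream of it. Bases under the peak are in capitals, over 250 bases before the start and 30 after it (chr4:39527410-39527689, minus strand, RefSeq GRCh38.p14).
UGDH start: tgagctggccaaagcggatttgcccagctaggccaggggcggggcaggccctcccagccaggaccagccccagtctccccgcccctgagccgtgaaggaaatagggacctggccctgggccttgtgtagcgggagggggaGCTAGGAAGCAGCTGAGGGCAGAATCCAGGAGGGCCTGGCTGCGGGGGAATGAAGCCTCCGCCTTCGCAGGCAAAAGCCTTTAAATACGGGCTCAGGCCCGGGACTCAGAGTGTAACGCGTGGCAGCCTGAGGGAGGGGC

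Of the export pumps, ABCC1 and ABCC2 had 19 and 17 peaks and ABCC3 none. ABCC3 spans 57.4 kb, and 32.5% of the genes of its span class had a peak. ABCC2 is in the same class, and the share was 33.6% in the class of ABCC1. These pumps move glutathione, glucuronate and sulfate conjugates out of the cell. ABCC2 (NCBI gene 1244, chr10:99782640-99852594, plus strand) had the highest folds of the 35 genes and ranked 197 of 3685 protein-coding genes by best fold. Its 2 strongest peaks were the 2 nearest to its start. The peak at chr10:99784601-99784792 had a fold of 14.5, with 34 IP reads (23.5 to 47.5) at a control level of 0.329, and that at chr10:99782652-99782899 had 13.5, with 28 reads (18.6 to 40.5) at 0.188. The intervals of their IP reads overlap. Only 4 of the 17 peaks had a fold of 9 or more, and the other 13 ran from 2.90 to 6.66. By IP reads the ABCC2 peaks had a median of 31, and the highest value, 37, was at chr10:99792242-99792375, where the control level was 4 and the fold 4.16. Of the 17 summits, 16 lay within 30.5 kb of the start.

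The ABCC2 start is shown because the first peak begins 13 bases into the gene, the start being base 1. The window holds 250 bases before the start and 30 after it, with the 18 bases under the peak in capitals (chr10:99782390-99782669, plus strand, RefSeq GRCh38.p14).
ABCC2 start: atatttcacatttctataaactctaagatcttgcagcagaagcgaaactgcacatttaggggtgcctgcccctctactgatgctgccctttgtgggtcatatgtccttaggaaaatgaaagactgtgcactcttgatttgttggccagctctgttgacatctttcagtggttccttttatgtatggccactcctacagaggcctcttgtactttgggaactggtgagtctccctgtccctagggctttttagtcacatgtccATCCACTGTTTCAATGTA

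ABCC1 (NCBI gene 4363, chr16:15949143-16143053) had its strongest peak at chr16:15949630-15949720, 0.524 kb from the lower-coordinate end of its span. It had a fold of 9.41 and 19 IP reads (11.4 to 29.7) at a control level of 0.188. The next summit was 58.3 kb away, and the other 18 peaks were spread over 98.9 kb with folds of 3.41 to 7.70 and 7 to 37 IP reads. OSGIN1, an oxidative stress-induced growth inhibitor gene, and TRIM16L, a gene similar to TRIM16, had no peak. TRIM16L is not counted as protein-coding in the annotation used. In the span classes that hold their lengths, 8.59 and 27.9% of protein-coding genes had a peak.

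**Figure D3:**
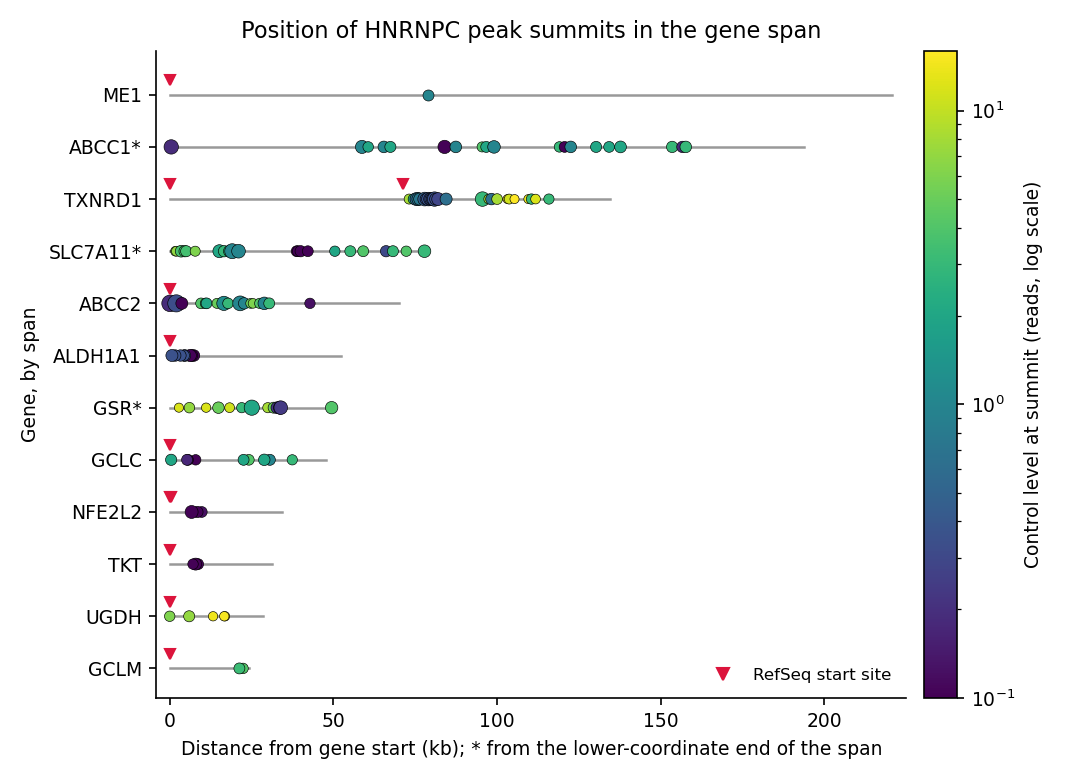
Summits (points) along the span of the 12 genes with a peak, as distance in kb from the gene start, or from the lower-coordinate end for SLC7A11, GSR and ABCC1 (asterisks), for which no start site was given. Point size grows with fold, colour gives the control level on a log scale, and triangles mark RefSeq start sites. All TXNRD1 peaks follow the second start site, the 8 ALDH1A1 peaks lie within 7.45 kb of the start, and both GCLM peaks lie near the end.

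Position differed from gene to gene. In the 9 genes with a listed start, 39 of 74 summits (52.7%) lay in the part of the span nearer the start, against 42.3% of summits in protein-coding genes with a listed start. The counts by gene were 16 of 17 in ABCC2, 8 of 8 in ALDH1A1, 3 of 3 in NFE2L2 and in TKT, and 1 of 1 in ME1. GCLC had 5 of 9, UGDH 3 of 5 and GCLM 0 of 2. TXNRD1, measured from its first start, had 0 of 26. Within 5 kb of the start of the span lay 10 of 74 (13.5%), against 14.7%. Measured downstream from any listed start, the second TXNRD1 start included, 14 of the 74 lay within 5 kb and 36 within 10 kb. Both counts include TXNRD1 peaks that follow its second start. The matching shares over protein-coding genes are not given here. Within 5 kb of either end lay 20 of all 128 (15.6%), against 23.3%. Summits of a gene are not independent, and no test was made. Exons, introns and UTRs could not be told apart with the gene spans used here.

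Members with a peak were longer by their median span than those without. None of the 15 genes under 20 kb had a peak, which allows a share of up to 20%, against 5.05% of protein-coding genes of that length. Of the 20 genes of 20 kb or more, 12 had a peak (60.0%, 95% exact binomial interval 36.1 to 80.9%), against 29.3% of protein-coding genes of that length. Of these 20, 8 had 5 or more peaks, against 14.5%, and 5 had 10 or more, against 7.05%. This bound was chosen after the values were seen. That median span was 51.1 kb for the 12 genes and 16.9 kb for the other 23. The shortest span with a peak was that of GCLM, 24.2 kb, and the longest without one was that of PIR, an iron-binding nuclear protein gene of 108.5 kb. The other genes of 20 kb or more without a peak were PGD, AKR1C2, AKR1C3, EPHX1, CYP4F11, ABCC3 and TRIM16L, the last not counted as protein-coding. Long members were not uniformly covered, since ME1 at 220.7 kb had 1 peak and ABCC1 at 193.9 kb had 19.

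**Figure D4:**
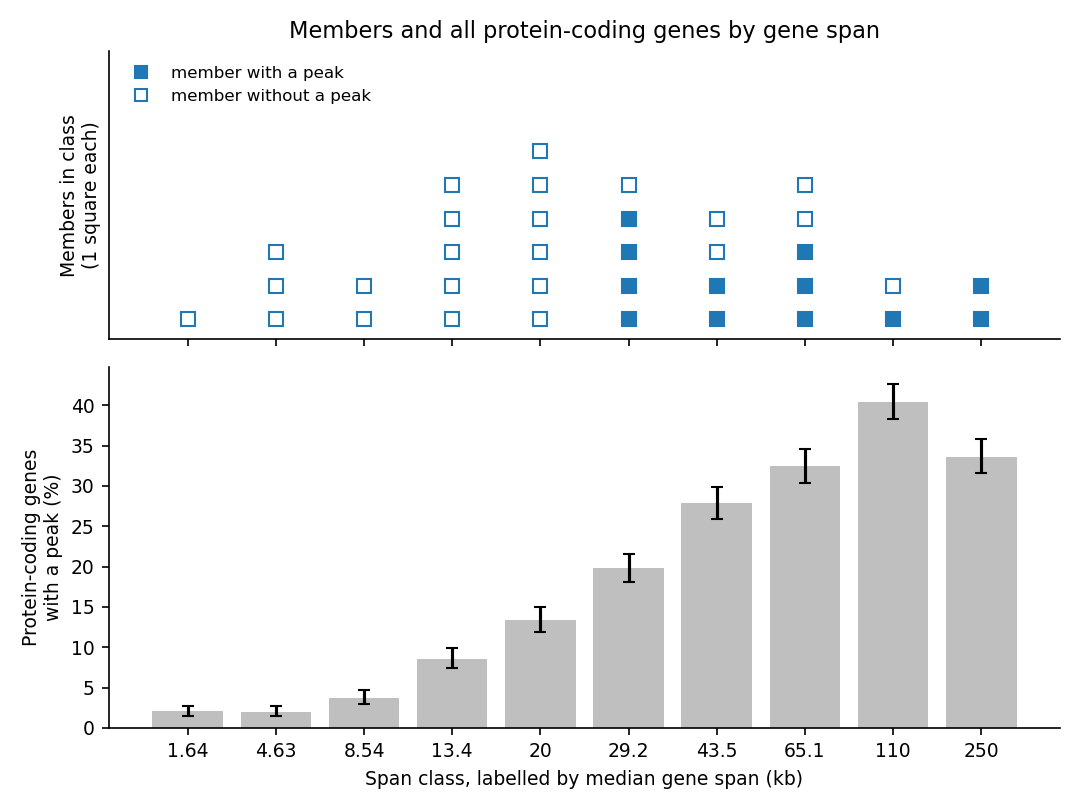
Upper panel, the 35 genes by span class, 1 square per gene, filled where the gene had a peak. Lower panel, percentage of all protein-coding genes with a peak in the same 10 classes, labelled by median span in kb, with 95% exact binomial intervals as error bars. Every filled square lies in the classes of median span 29.2 kb or more, where 19.8 to 40.4% of protein-coding genes had a peak.

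Members without a peak were not all far from one. The nearest summit lay 1.76 kb from the span of TRIM16L, in no protein-coding gene, 3.59 kb from ABCC3, in ANKRD40, and 8.38 kb from NQO1, in NFAT5, where it had 38 IP reads. NQO1 encodes the quinone reductase that serves as a standard NRF2 target. The median distance over the 23 genes was 135.2 kb, and 7 had a summit within 100 kb. The largest distance, 2224 kb, was that of TALDO1.

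Genes that control NRF2 were also read from the peak list, and they too were chosen with earlier results of these data known. Of 24 such genes 10 had a peak (41.7%, 95% exact binomial interval 22.1 to 63.4%), against 18.4% of protein-coding genes. All 10 were among the 17 of 20 kb or more, a length at which 29.3% of protein-coding genes had a peak. KEAP1 (17.2 kb) and CUL3 (115.2 kb) had none. The highest best folds were those of FBXW11 (11.7, 10 peaks), a substrate receptor that acts on NRF2 apart from KEAP1, the coactivator gene CREBBP (9.79, 15 peaks), CAND1 (9.32, 8 peaks), which exchanges cullin adaptors, SIRT1 (9.16, 11 peaks), the kinase gene GSK3B (9.13, 9 peaks) and EP300 (7.22, 10 peaks). BACH1, the repressor that competes with NRF2 at response elements, had 6 peaks and a best fold of 6.73.

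Other redox and detoxification genes had a peak in 15 of 79 cases (19.0%, interval 11.03 to 29.4%), near the 18.4% of all protein-coding genes. The highest best folds were those of the export pump gene ABCC4 (15.95, 23 peaks), the transferrin receptor gene TFRC (15.5, 13 peaks), the taurine transporter gene SLC6A6 (13.8, 14 peaks), CBR4 (8.39, 6 peaks), and ME2 and the mitochondrial transhydrogenase gene NNT (8.19 each, 5 and 12 peaks). SLC3A2, which pairs with SLC7A11 in the cystine transporter, had no peak in a span of 32.8 kb.

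Promoter windows were searched for the core of the antioxidant response element, TGACNNNGC on either strand, in the 300 bases from 250 before to 50 after each RefSeq start. Of the 35 genes 25 had a window, and the other 10 were not searched. The core was found in 10 of 32 windows (31.2%, interval 16.1 to 50.01%), against 13.8% of 22199 windows of protein-coding genes. Some genes have several windows, which are not independent, and both TXNRD1 windows are among the 10. By gene the core was found in 9 of the 25 (36.0%, interval 17.97 to 57.5%), against 17.93% of genes. It was present in 3 of 9 genes with a peak and in 6 of 16 without. A match of this short core is a description of the letters and not a binding site. The 3 genes with both a core and a peak are shown with 20 bases on each side and the core in capitals, given on the strand of the gene. Positions give the first base of the core relative to the start, with the start as base 1 and no base 0. The core lies at −34 to the GCLM start (chr1:93909436-93909484, minus strand), −137 to the ME1 start (chr6:83431160-83431208, minus strand), −99 to the first TXNRD1 start (chr12:104215660-104215708, plus strand) and −102 to the second (chr12:104286910-104286958, plus strand). Further cores at 12 in ME1 and −8 in TXNRD1 are not shown.
GCLM: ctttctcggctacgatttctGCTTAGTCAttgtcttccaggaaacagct
ME1: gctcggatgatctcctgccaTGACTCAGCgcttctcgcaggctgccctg
TXNRD1 first start: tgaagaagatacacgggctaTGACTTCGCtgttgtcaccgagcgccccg
TXNRD1 second start core: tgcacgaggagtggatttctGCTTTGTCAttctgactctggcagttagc

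Marker genes were read as a check of the cell line, which their peaks do not settle. Of 10 epithelial and mesenchymal genes listed for A549, CDH1 (10 peaks) and CDH2 (6 peaks) had peaks, a share of 20% beside 18.4% of protein-coding genes. KRT7, KRT8, KRT18, KRT19, EPCAM, VIM, MUC1 and LCN2 had none. None of 12 markers of blood, endothelial, fibroblast, liver, alveolar and airway cells had one, which allows a share of up to 25% by the limit of 3 counts and 26.5% by the exact binomial interval. Lack of a peak does not show lack of expression.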

How the data were processed

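RIP-seq was made from 1 HNRNPC IP and 1 input sample of A549, per the labels. Per the submitters' processing notes, the tools were HISAT2, MACS2 and bedtools and the build was hg38, and versions and settings are not given in the sources used here. The deposited narrowPeak list gives, per peak, a position, a score (10 times the −log10 q, as an integer), a fold enrichment (a ratio) and the −log10 of p and q, per the deposited file. It gives no read totals, so depth per library is unknown. Of 23148 peaks, the 23111 on autosomes, X and Y were used.

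Genes were matched by symbol to RefSeq GRCh38.p14, and strand and start sites came from the RefSeq promoter table. IP reads and control levels were solved from fold and p under the MACS2 formulas and tested on data simulated with the same formulas. The simulated read numbers were above all those of NFE2L2, TKT and ALDH1A1, and the factor for IP coverage was supplied. Solutions at such low read numbers and the finding of that factor were thus not tested. The members and lists were chosen with earlier results of these data known. All 35 members are accounted for. The highest peak of each is printed, as is the widest where it reaches 1000 bp, with up to 6 genes of each pathway list by fold, KEAP1 and CUL3. Other peaks and pathway genes given, such as BACH1 and SLC3A2, were chosen after their values were seen. Protein sequences, exons and U runs were not analysed here. Python 3.11.15 was used with scipy 1.17.1 for intervals, pandas 2.3.3 and numpy 2.4.6 for tables, and matplotlib 3.10.9 for figures.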

Additional observations from a re-analysis of the deposited data

How the results depend on the processing

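The number of members with a peak was 12 with a fold of 4 or more, with any overlap, with at least as much of the peak inside the span as outside, and without summits in several protein-coding genes, and 11 with q of 0.001 or less, where ME1 was lost. The number of peaks in members stayed within 1.5 times of 128 in these settings, with 89 under either stricter threshold. Of all peaks, 92.9% had a fold of at least 3.998, that of the member peak just under the bound of 4. The fold bound thus removed a larger part of the member peaks than of all peaks. The share of all peaks with q of 0.001 or less is not given here. With only peaks at a control level of 1 or more, a setting chosen after seeing the data, 81 peaks in 9 members remained, without NFE2L2, TKT and ALDH1A1, and 9.83% of protein-coding genes had such a peak. Without TXNRD1, also chosen later, 102 peaks were left. The median best fold ranged from 6.73 to 7.46. Other pathway genes with a peak numbered 25, 23 with q of 0.001 or less and 25 with any overlap, and the share of member summits within 5 kb of an end was 15.6%, or 16.9% with the stricter q. No paired analysis was possible because each group has 1 library. Weak peaks rest on 6 to 10 IP reads, so their order within a gene is not resolved.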
